A study of Mus musculus with 6 samples.

Results

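The genes of the p53 pathway were examined in HL-1 cells after silencing of the long noncoding RNA Malat1. A list of 41 regulators and direct targets of p53 defined the group, and a gene belonged to it if the deposited table of 21269 genes held its symbol. This was the case for 37 genes. The other 4 genes of the list, Pmaip1, Perp, Tnfrsf10b and Trp63, were not analysed here. Of the 37 genes, 36 had enough reads to be tested and 1, Trp73, did not.

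p53, the product of Trp53 in mice, is a transcription factor that responds to DNA damage and other stress. It is controlled mainly at the protein level, where Mdm2 marks it for degradation and Mdm4 blocks its activity, and p53 in turn activates the transcription of Mdm2, which closes a feedback loop. Its targets arrest the cell cycle through the inhibitor p21 (Cdkn1a), repair DNA, trigger apoptosis or adjust metabolism. In the heart, p53 and p21 are known for their link to cell cycle exit of cardiomyocytes. RNA sequencing measures the transcripts of these genes, not the amount or the activity of the p53 protein.

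HL-1 is a contractile line from mouse atrial cardiomyocytes that descends from tumor cells carrying the large T antigen of simian virus SV40, a protein known to bind p53. At 24 hours after seeding, the cells were transfected with a gapmer at 50 nM. A gapmer is a short DNA strand flanked by locked nucleic acid (LNA), which binds its target RNA and leads to cleavage of it. One group received a gapmer against Malat1 (LNA Malat1) and the other a control gapmer (LNA Control), and RNA of the whole culture was collected 48 hours later, in 3 libraries per group. All libraries came from this 1 line, only 1 gapmer per group is labelled, and the labels do not say whether the libraries came from separate cultures, so the p-values measure the spread between these samples, which may be technical.

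Each value below is a normalized count, the number of reads on a gene scaled by 1 factor per library and rounded to a whole number by the authors. The factors recovered from the values correspond to between 4511607 and 5594033 reads per library. For genes with a mean of at least 5 normalized counts, limma compared the groups after log2(normalized count + 1) transformation, and the log2 ratio of a gene is the difference of its group means on that log2 scale, LNA Malat1 minus LNA Control, with its standard error (SE) from 3 against 3 libraries. A gene is described as higher or lower where its p, adjusted over the 15650 genes tested, was at most 0.05, and as called where the fold was also at least 1.5. Malat1 itself fell to 57.3% of LNA Control (log2 ratio -0.80 with an SE of 0.07, adjusted p = 7.5e-06).

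The libraries of LNA Control differed more from each other than those of LNA Malat1. Over genes with at least 20 reads in a pair of libraries, the chi-square of the recovered reads, near 1 per gene for sampling noise, was 4.178 between LNA Control replicates 1 and 3 and at most 1.163 between LNA Malat1 replicates. LNA Malat1 replicates 1 and 3 differed by less than the sampling noise over all genes compared (0.949 per gene) though not in the 1754 genes where the pair held 1600 or more reads (1.114 per gene, chi-square p = 0.00052). In such genes the other LNA Malat1 pairs gave 1.665 and 2.056 and the LNA Control pairs 4.508 to 15.031. The values of each library are therefore printed, no mean ± SD is given, and the tests were repeated with these replicates counted as 1 sample. Several markers of the labelled cell type were present, among them Tnnt2, with 647 to 746 normalized counts, Ryr2 and Nkx2-5. Others were low, Myl7 with 18 to 32 and Myl4 with 30 to 49, and Myh6 was near 0, with at most 7. The fibroblast-associated collagen genes Col1a1 and Col3a1 were also abundant, with 1794 to 2650 normalized counts, and Col1a2 was at 0 or 1.

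Of the 36 p53 pathway genes tested, 18 were higher and 2 were lower in LNA Malat1. Among all genes tested, 14.3% were higher and 14.0% were lower, against 50.0% and 5.56% of the p53 pathway genes. The median log2 ratio was 0.24 for the p53 pathway genes and 0.02 for all genes tested, and 31 of the 36 genes had a positive and 5 a negative value. Most changes were small. The 18 higher genes rose by 1.14-fold to 1.85-fold, and only Btg2, Dram1 and Ercc5 reached the 1.5-fold minimum with all 6 libraries. These 3 called genes make up 8.33%, next to 8.0% of all genes tested, and the 2 of them with a mean of at least 50 make up 5.71% of the p53 pathway genes at that level, against 3.05% of all genes there. None of the p53 pathway genes was called downregulated by limma, where 2.92% of all genes were. At an unadjusted p of at most 0.05 the numbers were 22 higher and 3 lower of 36, against 3233 and 2997 of the 15650 genes tested. Limma's voom on the recovered reads also called none of the 36 downregulated, where 400 of the 15650 genes were.

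In 23 of the 36 genes every LNA Malat1 library lay above every LNA Control library, or 63.9% against 20.5% of all genes tested, and in 3 genes every one lay below, or 8.33% against 20.8%. The log2 ratio of all genes depended on their level, with low-count genes more often higher. Of the 36 genes, 35 had a mean of at least 50 normalized counts, and 17 of these 35 were higher and 2 were lower, or 48.6% and 5.71%, against 12.2% and 19.7% of the 10490 genes above the same level. Of the 18 higher genes, 11 remained so with each of the 6 libraries left out in turn. The other 7, Trp53, Zmat3, Eda2r, Fas, Rrm2b, Apaf1 and Psrc1, had an adjusted p above 0.05 in at least 1 of these fits. Psrc1 fell short of the threshold without LNA Malat1 replicate 1 and Eda2r without replicate 2. Fas and Zmat3 each did so without LNA Malat1 replicates 1 or 3 and also without LNA Control replicate 1 (Fas) or 2 (Zmat3), with adjusted p of up to 0.11 and 0.074. Rrm2b did so without LNA Control replicate 2 or LNA Malat1 replicates 2 or 3 (up to 0.10), Trp53 in 4 of the 6 fits, those without LNA Control replicates 2 or 3 or LNA Malat1 replicates 1 or 3, and Apaf1 in all but the fit without LNA Control replicate 3 (up to 0.11).

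**Figure D1:**
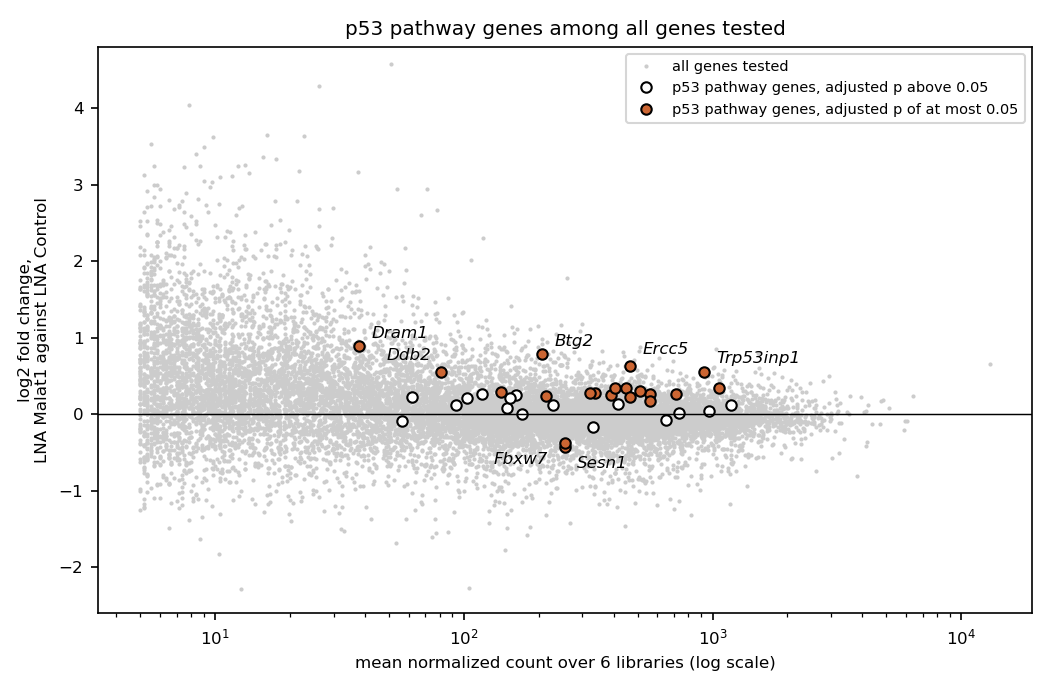
Log2 ratio of LNA Malat1 against LNA Control (vertical axis) by mean normalized count over the 6 libraries (horizontal axis, log scale) for all 15650 genes tested (grey) and the 36 p53 pathway genes (circles, filled at an adjusted p of at most 0.05). The 18 higher p53 pathway genes lie between 1.14-fold and 1.85-fold, at moderate levels, and Sesn1 and Fbxw7 are the 2 that are lower.

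The regulators of p53 are described first. Trp53 (chromosome 11, positions 69580359 to 69591873, mm10) had normalized counts of 399, 340 and 336 under LNA Control, against 448, 409 and 422 under LNA Malat1. The groups did not overlap, though LNA Control replicate 1 came close to the LNA Malat1 libraries. The log2 ratio was 0.25 (SE 0.07, adjusted p = 0.019), and the adjusted p was 0.077 after merging LNA Malat1 replicates 1 and 3 and up to 0.10 with a library left out. Mdm2, which encodes the ubiquitin ligase that degrades p53 (chromosome 10, positions 117688875 to 117710758), had counts of 994, 927 and 896 under LNA Control, against 1183, 1254 and 1146 under LNA Malat1. The groups were apart, at a log2 ratio of 0.35 (SE 0.06, adjusted p = 0.00076) and of 0.31 to 0.39 when single libraries were left out.

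Mdm4, the related inhibitor that binds the activation domain of p53, had 938, 970 and 950 normalized counts under LNA Control against 979, 969 and 996 under LNA Malat1, and the groups overlapped. Its log2 ratio of 0.04 had a 95% interval from -0.06 to 0.15 (adjusted p = 0.54). Ppm1d, the phosphatase gene Wip1 that dampens p53 signaling, had a log2 ratio of 0.12 (adjusted p = 0.19). Fbxw7, a substrate receptor of an SCF ubiquitin ligase and itself a p53 target, moved in the other direction. It had 264, 290 and 308 normalized counts under LNA Control against 216, 230 and 218 under LNA Malat1, all of the latter below all of the former (log2 ratio -0.37 with an SE of 0.07, adjusted p = 0.002). Trp73, which encodes the p53 relative p73, was barely transcribed, with 2, 3 and 1 normalized counts under LNA Control against 4, 5 and 8 under LNA Malat1, and was not tested.

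**Figure D2:**
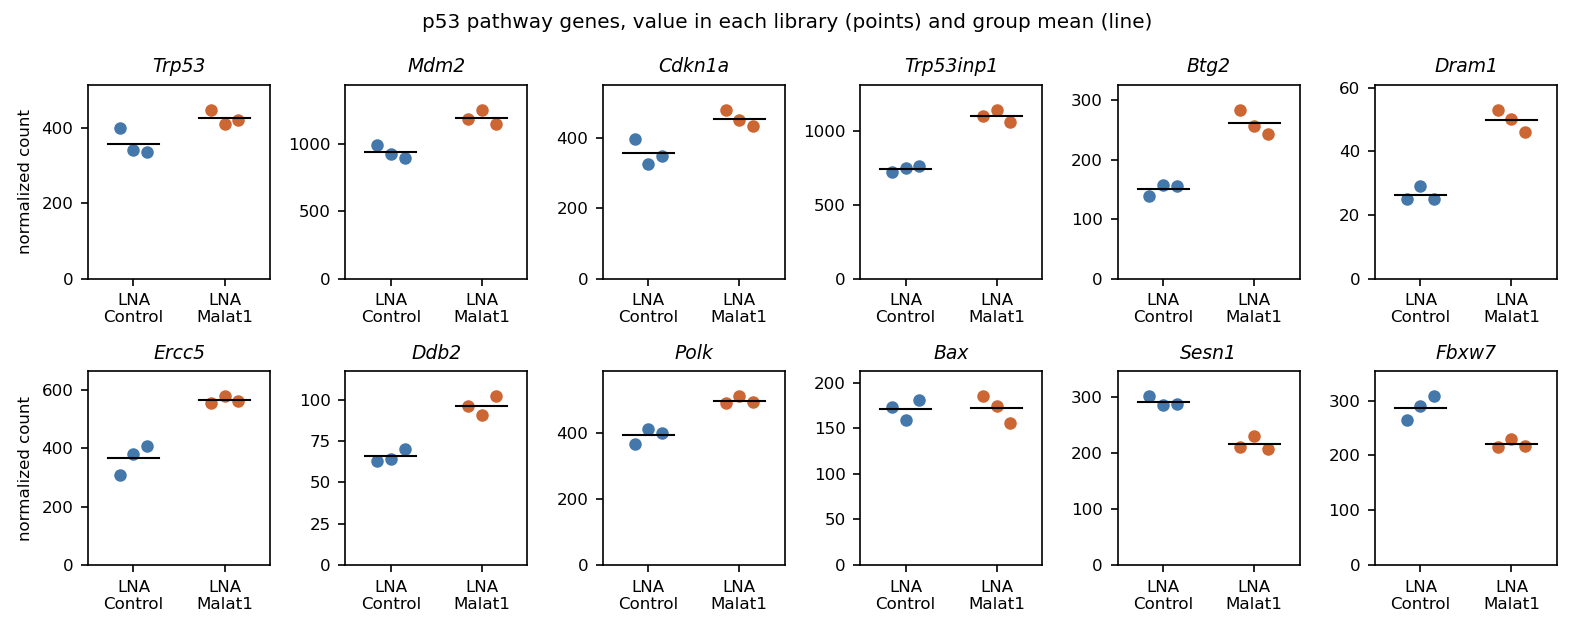
Normalized counts (vertical axis, from 0, a scale of its own per gene) of 12 p53 pathway genes in each library, with points for libraries and a line for the group mean. Trp53, Mdm2, Cdkn1a, Trp53inp1, Btg2, Dram1, Ercc5, Ddb2 and Polk show all LNA Malat1 points above all LNA Control points, Bax shows overlapping groups, and Sesn1 and Fbxw7 show all LNA Malat1 points below.

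p53 binds DNA as a tetramer, and its response element consists of a pair of decamers. The promoters of the p53 pathway genes were searched for the p53 decamer, from 250 bases before to 50 bases after each start site in RefSeq (GRCm38.p6, which is mm10). The decamer is its own reverse complement as a consensus, so both strands are covered by the same search. Such windows were given for 31 of the 36 tested genes, and 12 of them, or 38.7%, held at least 1 decamer with no mismatch, as did 8.13% of 10587 tested genes with a window. A pair of decamers with no gap and at most 2 letters off was found in Cdkn1a and Rps27l, or 6.45%, against 0.179% of the tested genes. The following stretches show both pairs and the decamers of a gene that rose (Mdm2), of Trp53, of a gene that fell (Sesn1) and of a gene without a difference past the test (Bax). Capitals mark the decamer, or the pair of decamers, and each stretch is written along the strand of its gene.
Cdkn1a, chr17:29090908-29090967, plus strand: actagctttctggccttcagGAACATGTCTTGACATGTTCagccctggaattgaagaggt
Rps27l, chr9:66946276-66946335, plus strand: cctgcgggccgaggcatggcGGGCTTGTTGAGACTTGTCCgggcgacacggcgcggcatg
Mdm2, chr10:117710915-117710964, minus strand: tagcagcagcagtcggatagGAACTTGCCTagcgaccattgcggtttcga
Trp53, chr11:69580264-69580313, plus strand: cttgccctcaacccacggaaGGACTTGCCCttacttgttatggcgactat
Sesn1, chr10:41887246-41887295, plus strand: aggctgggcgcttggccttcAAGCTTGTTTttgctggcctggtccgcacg
Bax, chr7:45467070-45467119, minus strand: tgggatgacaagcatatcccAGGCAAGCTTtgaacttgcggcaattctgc

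The pairs of Cdkn1a and Rps27l were each 1 letter off the consensus and began 51 and 117 bases before a start site. Within the p53 pathway genes that had a window, holding a decamer in it did not go with a larger share of higher genes. The tested genes without a window were all among the higher genes and are left out of this comparison. Of the 12 genes with a decamer 5 were higher and 1 was lower, with a median log2 ratio of 0.13, and of the 19 without one 8 were higher and 1 was lower, with a median of 0.23. A match of letters is a description and not a binding site, and a window without a match says only that these letters are not in it.

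Of the 8 genes grouped under cell cycle arrest, 3 were higher (37.5%, against 14.3% of all genes tested). None was lower, where 14.0% of all genes tested were, and with only 8 genes a count of 0 is near that share. None was lower at an unadjusted p of at most 0.05 either, where 2997 of the 15650 genes tested were. The grouping is broad and includes the spindle gene Psrc1 and the coregulator gene Sertad1. Cdkn1a (chromosome 17, positions 29090976 to 29100727), which encodes the cyclin-dependent kinase inhibitor p21 and carries the pair of decamers printed above, had normalized counts of 396, 325 and 349 under LNA Control, against 479, 449 and 432 under LNA Malat1. The groups did not overlap, at 127% of LNA Control (log2 ratio 0.35 with an SE of 0.07, adjusted p = 0.0038). Btg2, an antiproliferative gene whose product binds the CCR4-NOT deadenylase (chromosome 1, positions 134075170 to 134079120), showed the clearest rise of these genes. It had 139, 157 and 155 normalized counts under LNA Control against 284, 256 and 244 under LNA Malat1, or 173% (log2 ratio 0.79 with an SE of 0.08, adjusted p = 1.8e-05), and the log2 ratio stayed at 0.73 to 0.84 when single libraries were left out. Psrc1, which encodes a microtubule-binding protein of the mitotic spindle, rose from 413, 449 and 423 to 522, 496 and 488 (log2 ratio 0.23, adjusted p = 0.0093, and 0.058 without LNA Malat1 replicate 1).

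The other genes of this class did not pass the test. Ccng1, the gene of cyclin G1 and the most abundant p53 pathway gene per length, with 322 normalized counts per kilobase (kb) of exon in LNA Control, had overlapping groups, of 1110, 1208 and 1079 against 1244, 1278 and 1172 (log2 ratio 0.12, adjusted p = 0.14). Gadd45a, a growth arrest and DNA damage gene, had a log2 ratio of 0.08 with a 95% interval from -0.14 to 0.30, and Plk2, a polo-like kinase gene, one of 0.02 with an interval from -0.12 to 0.15. Both changed sign in some of the fits with a library left out, and 19.1% of the exonic length of Gadd45a is shared with a gene on the other strand. Plk3 had all LNA Malat1 libraries (157 to 170) above all LNA Control libraries (131 to 151) at a adjusted p of 0.068. Sertad1, a transcriptional coregulator gene, had a log2 ratio of 0.23 (adjusted p = 0.22).

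Of the 9 apoptosis genes tested, 4 were higher (44.4%, against 14.3% of all genes tested). None was lower, where 14.0% of all genes tested were, and with only 9 genes a count of 0 is near that share. None was lower at an unadjusted p of at most 0.05 either, where 2997 of the 15650 genes tested were. Trp53inp1, which encodes a nuclear stress protein that promotes p53 activity and autophagy (chromosome 4, positions 11156431 to 11174379), had 722, 748 and 758 normalized counts under LNA Control against 1096, 1140 and 1057 under LNA Malat1. This was the rise with the smallest adjusted p of the p53 pathway genes, to 148% of LNA Control (log2 ratio 0.56 with an SE of 0.05, adjusted p = 8e-06). Ei24, the gene of a membrane protein of the endoplasmic reticulum, rose from 450, 468 and 447 to 570, 579 and 549 (log2 ratio 0.31, adjusted p = 0.00076). Zmat3, a zinc finger gene whose product binds RNA, had a log2 ratio of 0.26 (adjusted p = 0.012), and Apaf1, the scaffold of the apoptosome, one of 0.18 (adjusted p = 0.023). Both missed the threshold after merging LNA Malat1 replicates 1 and 3 (adjusted p = 0.059 and 0.066).

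The other 5 apoptosis genes tested did not pass. Bax, which permeabilizes the mitochondrial outer membrane, had 173, 159 and 181 normalized counts under LNA Control against 185, 174 and 156 under LNA Malat1. The groups overlapped fully, at a log2 ratio of 0.00 (95% interval from -0.18 to 0.19, adjusted p = 0.98), and the sign of the estimate depended on the library left out. Bbc3, the gene of the BH3-only protein PUMA, had 116, 106 and 102 against 136, 126 and 125, apart in all libraries, at a adjusted p of 0.055. Phlda3, an inhibitor of Akt signaling, and Aen, a nuclease gene, were likewise apart in all libraries and missed the threshold, at adjusted p of 0.058 and 0.069. Casp1, an inflammatory caspase gene, had a log2 ratio of -0.08 (adjusted p = 0.75).

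Both death receptor genes that were tested were higher, as were 14.3% of all genes tested. Fas, the receptor of Fas ligand, had 119, 137 and 127 normalized counts under LNA Control against 163, 147 and 157 under LNA Malat1 (log2 ratio 0.29 with an SE of 0.09, adjusted p = 0.027). Eda2r, a receptor of ectodysplasin A on the X chromosome, had 594, 673 and 672 against 750, 837 and 739 (log2 ratio 0.26 with an SE of 0.07, adjusted p = 0.011). In each gene the groups were apart. The adjusted p of Fas rose to 0.088 after merging LNA Malat1 replicates 1 and 3, and that of Eda2r to 0.065 without LNA Malat1 replicate 2.

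All 5 genes of DNA repair and nucleotide supply were higher, and in each the groups did not overlap. Among all genes tested 14.3% were higher, and in 20.5% every LNA Malat1 library lay above every LNA Control library. Ercc5, which encodes the XPG endonuclease of nucleotide excision repair (chromosome 1, positions 44147744 to 44181260), had 308, 380 and 408 normalized counts under LNA Control against 554, 577 and 560 under LNA Malat1. The LNA Control libraries spread more than those of LNA Malat1, with replicate 1 the lowest. The log2 ratio was 0.63 (SE 0.09, adjusted p = 0.00016), and 0.52 without LNA Control replicate 1, which is below the 1.5-fold minimum. Ddb2, which recognizes ultraviolet lesions in the same pathway, had 63, 64 and 70 against 96, 91 and 102, or 146% (log2 ratio 0.55 with an SE of 0.11, adjusted p = 0.0029). Exons of Ddb2 share 23.8% of their length with Acp2 on the other strand, and whether the counting used the strand is not given in the sources used here.

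Xpc, the other damage sensor of nucleotide excision repair, rose from 278, 291 and 304 to 361, 355 and 341 normalized counts (log2 ratio 0.28, adjusted p = 0.0045). Polk, the gene of the translesion polymerase kappa, rose from 367, 414 and 401 to 492, 513 and 495 (log2 ratio 0.34, adjusted p = 0.00098). Rrm2b, the p53-inducible subunit of ribonucleotide reductase, which supplies nucleotides for repair, had 202, 195 and 193 against 222, 250 and 227 (log2 ratio 0.24, adjusted p = 0.022, and up to 0.10 with a library left out). The 3 nucleotide excision repair genes Ddb2, Xpc and Ercc5 thus rose by 1.21-fold to 1.55-fold.

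**Figure D3:**
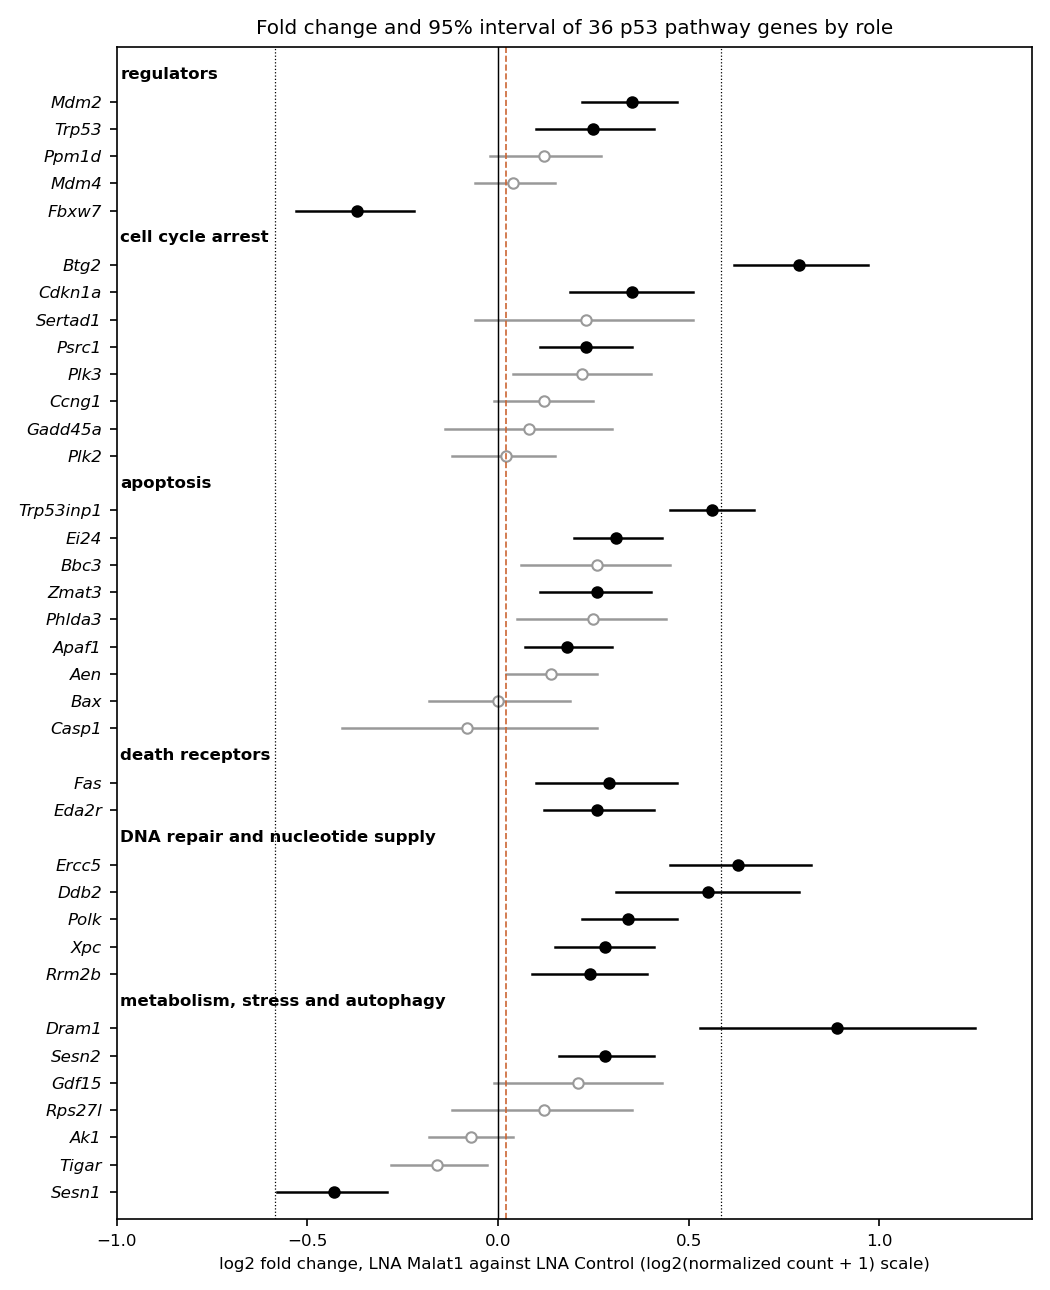
Log2 ratio of LNA Malat1 against LNA Control (horizontal axis) with its 95% interval for the 36 p53 pathway genes tested, grouped by role. Filled black points passed an adjusted p of 0.05, open grey points did not, dotted lines mark 1.5-fold and the dashed line the median of all genes tested (0.02). All 5 repair genes are filled and to the right of 0, and the 2 filled points on the left are Fbxw7 and Sesn1.

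The 7 genes of metabolism, stress and autophagy moved in both directions, with 2 higher (28.6%) and 1 lower (14.3%). Among all genes tested 14.3% were higher and 14.0% were lower, so the share of lower genes was near the background. Dram1, which encodes a lysosomal membrane protein that promotes autophagy (chromosome 10, positions 88322804 to 88379080), had the largest log2 ratio of the p53 pathway genes and the lowest level of those tested. It had 25, 29 and 25 normalized counts under LNA Control against 53, 50 and 46 under LNA Malat1, or 185% (log2 ratio 0.89 with an SE of 0.17, adjusted p = 0.0017), and was called with each library left out. The sestrins, stress proteins that restrain mTORC1, differed in direction. Sesn1 (chromosome 10, positions 41809935 to 41908424) fell from 302, 287 and 289 to 212, 231 and 207 normalized counts (log2 ratio -0.43 with an SE of 0.07, adjusted p = 0.00043). Sesn2 rose from 316, 303 and 293 to 375, 362 and 374 (log2 ratio 0.28 with an SE of 0.06, adjusted p = 0.0028). Neither 95% interval, from -0.58 to -0.29 for Sesn1 and from 0.16 to 0.41 for Sesn2, reached 0.

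Tigar, a fructose bisphosphatase gene, had all LNA Malat1 libraries (311 to 314) below all LNA Control libraries (332 to 362) at a adjusted p of 0.061. Gdf15, a stress-induced cytokine gene, was apart in the other direction, with 90 to 105 normalized counts in LNA Control and 106 to 115 in LNA Malat1, at a adjusted p of 0.14. The adenylate kinase gene Ak1 (log2 ratio -0.07, adjusted p = 0.35) and the ribosomal protein gene Rps27l (0.12, adjusted p = 0.45) had overlapping groups.

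Levels per length were compared within LNA Control, as mean normalized counts per kb of exon. Ccng1 was followed by Ak1 with 257, Mdm2 with 185 and Plk2 with 163, while Trp53 had 88.6 and Cdkn1a 100. The lowest levels were those of Rrm2b with 21.5, Dram1 with 8.65 and Trp73 with 0.361. Of the 4 genes with the highest level per length, only Mdm2 was higher in LNA Malat1.

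Further genes of the pathway were taken from lists. In a list of kinases and modifiers that act on p53, 22 genes were tested, of which 1 was higher (4.55%) and 3 were lower (13.6%), with a median log2 ratio of -0.01. Among all genes tested the shares were 14.3% and 14.0%, so the share of lower genes was near the background. Trp53bp1, the gene of 53BP1, which binds p53 and directs the repair of double-strand breaks (chromosome 2, positions 121193281 to 121271407), showed the largest fall. It had 720, 743 and 712 normalized counts under LNA Control against 361, 348 and 358 under LNA Malat1, or 49.1% (log2 ratio -1.03 with an SE of 0.05, adjusted p = 1.3e-07). Usp7, which encodes a deubiquitinase of both Mdm2 and p53, fell from 1164, 1100 and 1073 to 715, 649 and 699, or 61.8% (log2 ratio -0.69 with an SE of 0.06, adjusted p = 3.2e-06). These were the 2 called genes of the list, or 9.09%, where 2.92% of all genes were called downregulated, and both were lower with each library left out. Tubgcp4 on the other strand covers 2130 of the 14164 exonic bases of Trp53bp1.

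The remaining pair that passed the test are kinases that sense DNA damage and were picked after their values were seen. Prkdc, the catalytic subunit of DNA-PK, had 379, 447 and 549 against 288, 321 and 320 (log2 ratio -0.55, adjusted p = 0.0021). Atr had 710, 869 and 1144 against 1162, 1287 and 1209 (log2 ratio 0.45, adjusted p = 0.017), and in LNA Control its replicates spread widely, and without LNA Control replicate 2 or any LNA Malat1 library the adjusted p was 0.054 to 0.084. Atm, Chek1 and Chek2, the other checkpoint kinases, had log2 ratios of 0.13, 0.05 and -0.02 at adjusted p of at least 0.42.

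A list of further p53-induced genes, written with earlier results of these data known, gave 38 tested genes. Of these, 15 were higher (39.5%) and 4 were lower (10.5%), with a median log2 ratio of 0.17. Among all genes tested 14.3% were higher and 14.0% were lower. Of the 38 genes, 9 were called upregulated, or 23.7% against 8.0% of all genes tested. Because of how the list was written, its shares are a description and no independent support. Acer2, an alkaline ceramidase gene, had 7, 5 and 10 normalized counts under LNA Control against 27, 26 and 23 under LNA Malat1 (log2 ratio 1.70 with an SE of 0.29, adjusted p = 0.00099). Trp53i11, a p53-induced gene of unclear function, had 56, 31 and 48 against 129, 100 and 106 (log2 ratio 1.32 with an SE of 0.19, adjusted p = 0.00027). In both genes the groups were well apart, although at low counts.

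Pidd1, the scaffold of the PIDDosome that activates caspase-2, rose from 119, 90 and 100 to 224, 194 and 227 normalized counts, or 209% (log2 ratio 1.06 with an SE of 0.11, adjusted p = 1.7e-05). Casp2, the caspase it activates, had 472, 444 and 433 against 346, 364 and 393 (log2 ratio -0.29, adjusted p = 0.0044). Thus the scaffold was higher and the caspase lower. Trp53cor1, the long noncoding RNA lincRNA-p21 next to Cdkn1a (chromosome 17, positions 29057430 to 29079179, minus strand), rose from 63, 68 and 73 to 128, 122 and 134, or 187% (log2 ratio 0.90 with an SE of 0.10, adjusted p = 4.7e-05), while Cdkn1a itself was at 127%. Of its exonic length, 44.1% is shared with a long noncoding RNA gene on the other strand. Ptprv, a receptor tyrosine phosphatase gene, had low counts of 12, 10 and 6 against 26, 23 and 13 (log2 ratio 1.06 with an SE of 0.34, adjusted p = 0.033) and passed the test in only 2 of the 6 fits with a library left out, those without LNA Control replicate 1 or LNA Malat1 replicate 3.

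Neat1, a long noncoding RNA that p53 induces and that forms paraspeckles, is also the neighbor of Malat1 on chromosome 19, and it was picked after its values were seen. It fell from 1435, 1393 and 1534 to 1032, 1056 and 1188 normalized counts (log2 ratio -0.41 with an SE of 0.06, adjusted p = 0.00045). The other lower genes of this list included Cmbl (log2 ratio -0.38) and Sulf2 (-0.15).

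**Figure D4:**
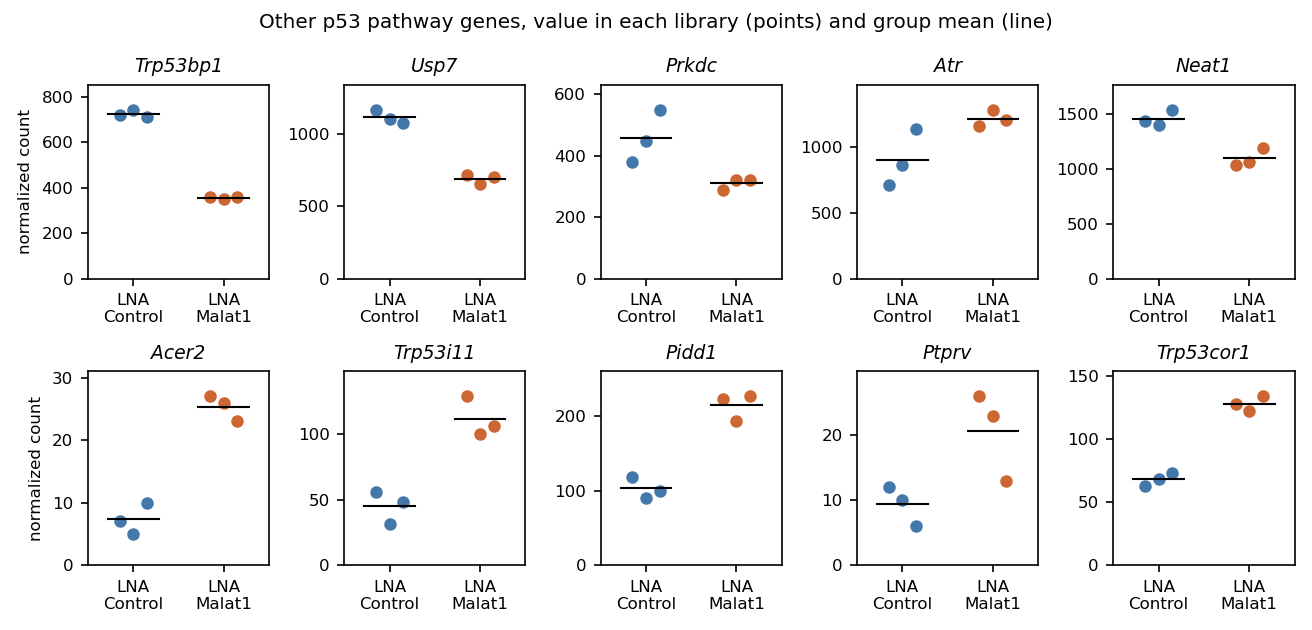
Normalized counts (vertical axis, from 0, a scale of its own per gene) of 10 other p53 pathway genes in each library, with points for libraries and a line for the group mean. The LNA Malat1 points of Trp53bp1 lie at 348 to 361 against 712 to 743 in LNA Control, those of Usp7, Prkdc and Neat1 also lie below, and those of Atr and of the 5 p53-induced genes of the lower row lie above.

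Of the apoptosis machinery outside the p53 targets, 3 of 26 tested genes were higher (11.5%) and 5 were lower (19.2%), next to 14.3% and 14.0% of all genes tested and 12.2% and 19.7% of those with a mean of at least 50, so both shares were near the background. The median log2 ratio was -0.05. Birc3, a caspase inhibitor gene, was called upregulated at low counts of 17, 14 and 12 against 30, 31 and 18 (log2 ratio 0.81, adjusted p = 0.039), a call lost under quantile normalization (0.25) and without LNA Control replicates 2 or 3 or LNA Malat1 replicates 1 or 2 (0.08 to 0.16). Bmf, a BH3-only gene, was called downregulated, with 58, 60 and 66 against 35, 33 and 49 (log2 ratio -0.66, adjusted p = 0.012, and 0.059 without LNA Malat1 replicate 1 or 2). The other higher genes were the apoptosis inhibitors Birc2 and Cflar, and the other lower genes were Bak1, Bcl2l2, Casp2 and Ripk1.

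Cell cycle genes that p53 is known to repress through p21 and the DREAM complex were examined as 22 tested genes, of which 7 were lower (31.8%) and 3 were higher (13.6%), with a median log2 ratio of -0.12. Of all genes tested 14.0% were lower and 14.3% higher, and of those with a mean of at least 50 the lower made up 19.7%, so the share of higher genes was near the background. Only Cenpf, a kinetochore gene, was called, and it was higher. Its counts of 735, 1346 and 1686 under LNA Control, against 1846, 1804 and 1774 under LNA Malat1 overlap in no library, with LNA Control replicate 1 far below the other LNA Control libraries (log2 ratio 0.61 with an SE of 0.21, adjusted p = 0.045). Without LNA Control replicate 1 the log2 ratio was 0.26 (adjusted p = 0.0095). Without LNA Control replicate 2 or any LNA Malat1 library the adjusted p was 0.082 to 0.14, and after merging LNA Malat1 replicates 1 and 3 it was 0.15. Mybl2, a transcription factor gene of the cell cycle, was the lower gene with the largest change and was picked after its value was seen, with 667, 624 and 592 against 443, 462 and 460 (log2 ratio -0.46, adjusted p = 8.7e-05). After merging LNA Malat1 replicates 1 and 3, 4 of the 22 genes of this list were lower and 1 was higher. Over all 15650 genes tested, 1639 were then lower and 1374 were higher.

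Targets of ATF4, the transcription factor of the integrated stress response, share some genes with stress-induced p53 targets and are a list of their own here. Of 13 tested genes, none was higher by limma, where 14.3% of all genes tested were, or by voom, where 2681 of 15650 were. None was higher at an unadjusted p of at most 0.05 either, where 3233 of the 15650 genes tested were. Lower were 4 genes (30.8%, against 14.0% of all genes tested and 19.7% of those with a mean of at least 50), Trib3 (log2 ratio -0.43), Ddit4 (-0.33), Ddit3 (-0.22) and Aldh1l2 (-0.20).

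**Figure D5:**
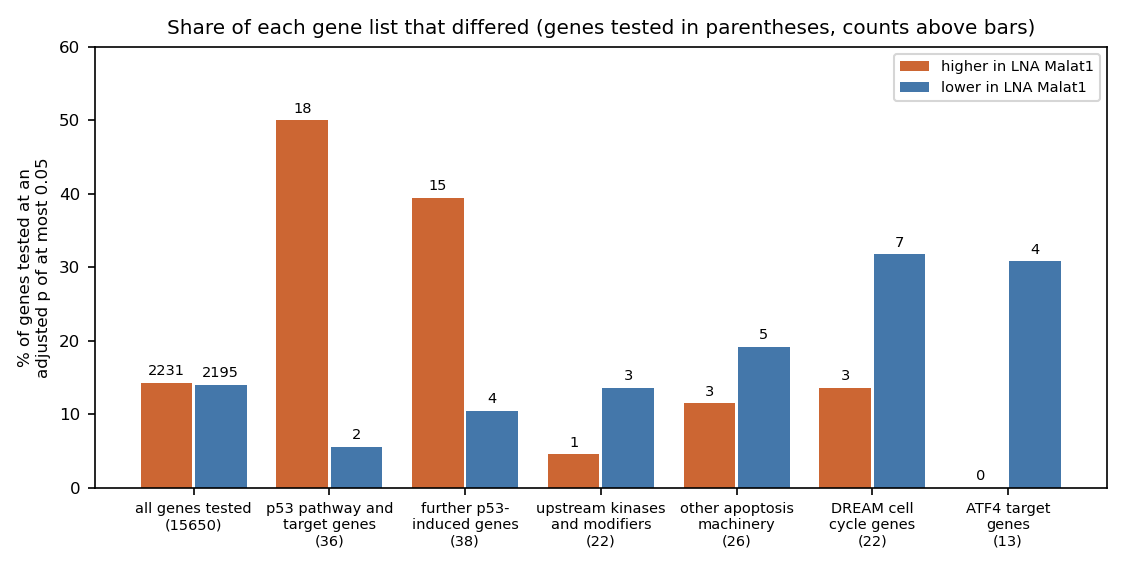
Percentage of the genes tested in each list (vertical axis) that were higher or lower in LNA Malat1 at an adjusted p of at most 0.05, with the number of genes above each bar and the number tested in parentheses. The p53 pathway and target genes stand at 50.0% higher and 5.56% lower and the further p53-induced genes at 39.5% and 10.5%, against 14.3% and 14.0% of all genes tested. The genes and lists were chosen with earlier results of these data known, so the shares are a description.

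Markers of other cell types were examined because RNA came from whole cultures, in which fewer cells of a type and less RNA per cell cannot be told apart. Of 6 leukocyte markers, 2 were analysed, and both rose from low levels, Csf1r from 13, 22 and 10 to 43, 39 and 23 normalized counts (log2 ratio 1.19, adjusted p = 0.013) and Cd68 from 23, 14 and 22 to 38, 33 and 31 (log2 ratio 0.79, adjusted p = 0.023). Hmgxb3 on the other strand shares 15.1% of the exonic length of Csf1r. With a library left out, the adjusted p was up to 0.082 for Csf1r and 0.10 for Cd68. It was 0.062 for Csf1r and 0.12 for Cd68 under quantile normalization. After merging LNA Malat1 replicates 1 and 3 it was 0.025 for Csf1r and 0.068 for Cd68. Their summed level was 32 to 36 in LNA Control and 54 to 81 in LNA Malat1. Of 6 endothelial markers, 3 were analysed, with sums of 22 to 31 and 36 to 37, and neither of the 2 tested passed (1 did at an unadjusted p of at most 0.05). The 5 of 7 fibroblast markers analysed summed to 5304 to 5911 in LNA Control and 4683 to 4817 in LNA Malat1. Among them, Col3a1 was lower (log2 ratio -0.33, adjusted p = 0.0014). The 9 of 10 cardiomyocyte markers analysed summed to 4045 to 4386 in LNA Control and 4054 to 4200 in LNA Malat1. Ryr2 alone held 2237 to 2706 of these counts. Of the 8 cardiomyocyte markers tested, 2 were higher and none was lower, next to 14.3% and 14.0% of all genes tested. Actn2 was called upregulated (log2 ratio 0.71, adjusted p = 0.0011) and was higher with each library left out. Tnnt2 (log2 ratio 0.15, adjusted p = 0.034) remained higher in only 1 of these 6 fits. The part of these markers in the p53 pathway values was not tested.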

How the data were processed

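RNA of 6 HL-1 libraries was sequenced by the authors. Per the methods they gave, reads were trimmed with Trimmomatic 0.39, aligned with STAR 2.7.7a to mm10 (Ensembl release 101), counted per gene with featureCounts 1.6.5 on exons, without reads that hit more than 1 gene or region, and normalized with DESeq2 1.30.0. The deposited values are a score rather than raw counts, namely gene counts that the authors divided by a library factor and rounded, so count models were not the main test. Columns of the authors' own comparison (fold changes and p-values) were not used.

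Genes with a mean of at least 5 normalized counts (15650 of 21269) entered limma 3.58.1 (R 4.3.3), fitted to log2(normalized count + 1) without a replicate block. Its moderated two-sided test used an intensity trend, and p was adjusted by Benjamini-Hochberg. The thresholds were an adjusted p of 0.05 and a fold change of 1.5. The test was also run on simulated data with the same spread in both groups. That simulation does not check error rates under the unequal spread of these libraries. With 3 libraries per group, exact permutation p has a floor of 0.1. Recovered reads cover counting error only. Positions are those of the authors' table, exonic lengths and overlaps come from GENCODE M21, and promoters from RefSeq.

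The genes and lists were chosen with earlier results of these data known. All listed genes present and, of each other list, at most the 5 called genes with the largest change were to be named, with library values for called genes, Trp53, Mdm2 and Cdkn1a. Other names in the other lists, and other library values, were chosen after the values were seen. Alternatives were a replicate block, pseudocounts of 0.1 and 5, other scalings, other filters, a fold change of 2, voom on recovered reads, merging LNA Malat1 replicates 1 and 3, and leaving out each library. A result of 1 gene of the list of further p53-induced genes is not reported here.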

Additional observations from a re-analysis of the deposited data

How the results depend on the processing

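The number of higher p53 pathway genes was 18. Leaving out a library gave 13 to 18, and the other alternatives gave 14 to 23. The number over all genes moved as well. It was 2231 of 15650, 1264 to 2641 with a library left out and 1286 to 2681 in the other alternatives, of which the filters also changed the number tested. The number called upregulated was 3, between 2 and 4 with a library left out, 5 with voom on the recovered reads and 0 at a fold change of at least 2. Between 2 and 3 were lower, where 1502 to 2402 of all genes were, and the median log2 fold change of the p53 pathway genes was 0.20 to 0.27. Of the estimates near 0, Bax became -0.01 and Plk2 -0.0 under median-of-ratios scaling, and with libraries left out in turn the log2 fold change ranged from -0.05 to 0.07 for Bax, from -0.02 to 0.19 for Gadd45a, from -0.02 to 0.07 for Plk2 and from -0.21 to 0.03 for Casp1. Over all genes, 1252 were called upregulated and 457 downregulated (73.3% upregulated), against 748 and 718 under quantile normalization (51.0%), 317 and 349 at a mean of at least 50, and 831 and 428 after merging LNA Malat1 replicates 1 and 3.

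Library numbers were tested as a replicate block. Deviations of same-numbered libraries correlated at 0.086, 0.182 and 0.083 over 10490 genes, so the numbers were not taken to pair the samples. With the block, 1297 genes were called upregulated and 442 downregulated, and 80 of 81 named or passing genes kept their call, the exception being Tsku (adjusted p = 0.057). The higher genes among kinases and modifiers numbered 2 with the block, under quantile normalization and with library totals set equal, 3 with voom and 0 after merging LNA Malat1 replicates 1 and 3. The last alternative left 3 lower genes in the apoptosis machinery, 4 lower and 1 higher in the DREAM list and 2 lower ATF4 targets, next to 1639 lower and 1374 higher of all 15650 genes tested. The higher DREAM genes were also 1 at a pseudocount of 0.1 and without a filter. With each library left out, the numbers ranged from 0 to 3 higher kinases and modifiers, 2 to 5 lower further p53-induced genes, 2 to 5 higher and 2 to 6 lower genes of the apoptosis machinery, 0 to 3 higher and 3 to 9 lower DREAM genes and 2 to 7 lower ATF4 targets. The causes of these shifts were not tested.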

Other observations

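The authors' table assigns genes to the KEGG p53 signaling pathway, a list that was used only after the files were seen. Of its 60 tested genes, 16 were higher (26.7%) and 10 were lower (16.7%), against 14.3% and 14.0% of all genes tested. Outside the p53 pathway genes described above, 43 were tested, of which 6 were higher (14.0%) and 9 were lower (20.9%), near the 12.2% and 19.7% of all genes with a mean of at least 50. In no list above were 22 of them, with 2 higher (9.09%) and 6 lower (27.3%), next to the same 12.2% and 19.7%. With 22 genes, these counts are not far from those shares. The higher pair were Sesn3, the third sestrin gene, with 957, 945 and 922 normalized counts under LNA Control against 1139, 1214 and 1184 under LNA Malat1 (log2 ratio 0.32, SE 0.05, adjusted p = 0.00048), and Gorab (log2 ratio 0.20, adjusted p = 0.045). Together with Sesn1 and Sesn2, the sestrins gave 2 higher genes and 1 lower gene.

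The lower genes of that list were mostly of the G1 phase and nucleotide supply. Ccnd1, the gene of cyclin D1, fell from 266, 280 and 271 to 196, 201 and 187 normalized counts (log2 ratio -0.48, SE 0.06, adjusted p = 0.00015). Ccnd3 and Cdk6, a cyclin D gene and the gene of its kinase partner, had log2 ratios of -0.23 and -0.20 (adjusted p = 0.0092 and 0.021). Rrm2, the subunit of ribonucleotide reductase that cycling cells use, had a log2 ratio of -0.22 (adjusted p = 0.013), while its p53-inducible relative Rrm2b was higher (0.24). The others were Ccng2 (log2 ratio -0.32) and Cd82 (-0.29).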
